A study of Mus musculus with 6 samples.

Results

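The genes described here are 10 genes of the secretory pathway and of the unfolded protein response, namely *Creb3l1*, *Creb3l2*, *Xbp1*, *Atf4*, *Atf6*, *Ddit3*, *Hspa5*, *Serpinh1*, *Sec23a* and *Sec24d*. They were found by symbol among the 32286 rows of the feature tables, and all 10 had counts in all 6 libraries. The libraries came from DID ("digits in a dish") cultures, in which dissociated cells of the distal forelimb mesenchyme of E11.5 CD-1 mouse embryos are grown at high density and reassemble into digit-like cartilage. Cultures were sampled on Day 2, Day 7 and Day 10, with 2 independent cultures a day (replicates A and B), and single cells were sequenced with the 10x Genomics 3′ chemistry (GEX V3.1). The embryos were wild type, and the labels name no treatment, so the groups differ by day of culture. Dissected tissue was pooled to start the cultures, so a replicate is a culture and not an animal. The question asked was how the level of each gene differed between days, and between cells with a high and a low share of *Col2a1*, the collagen of cartilage.

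The cells kept per library numbered 9448 to 16486, and their summed UMIs (unique molecular identifiers, 1 per captured RNA molecule) 178022112 to 260245417. The median was 3871 UMIs per cell in Day 2 replicate B and 8062 to 24197 in the other 5 libraries, so Day 2 replicate B stood apart as shallow. Any pair of libraries shared between 24 and 67 cell barcodes, at most 0.543% of the cells of either. Between 1779 and 470282 UMIs of each gene were counted per library. The *Ddit3* symbol has a second, overlapping gene model in the tables, which held no UMI in any library, and reads that fit both models may be missing from the count. Levels are given as CPM, the share of a gene in the summed UMIs of a library on a common scale, with TMM factors, which correct for differences in composition. Fold changes are on the log2 scale, from edgeR's quasi-likelihood test on the summed counts. Their standard error (SE) was derived from that test, as the absolute fold change over the square root of its F value. A gene was called at a Benjamini-Hochberg adjusted p under 0.05 over all genes tested. In whole cultures, more RNA per cell and more cells of a type that holds the RNA cannot be told apart.

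Secreted proteins fold in the endoplasmic reticulum (ER), and the unfolded protein response is the set of signals that adjusts this compartment to its load. Its ER-membrane sensors are IRE1 (encoded by *Ern1*), which splices the mRNA of *Xbp1*, PERK (*Eif2ak3*), which slows translation while favouring that of *Atf4*, and ATF6, which is cut to release a transcription factor. *Creb3l1* (OASIS) and *Creb3l2* (BBF2H7) encode relatives of ATF6 that are cut in the same way, the former known from collagen I-producing osteoblasts and the latter from chondrocytes, where *Sec23a* is a known target. *Ddit3* (CHOP) lies downstream of *Atf4*. *Hspa5* (BiP) is the main ER chaperone, *Serpinh1* (HSP47) the chaperone of procollagen, and SEC23A and SEC24D form the inner coat of the COPII vesicles that carry cargo out of the ER. The 3′ counts do not separate the spliced from the unspliced *Xbp1* mRNA, and they report neither the cleavage nor the translation by which most of these factors are regulated.

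Promoter sequences from RefSeq, on GRCm38.p6 and running from 250 bases before to 50 after the RefSeq start, were at hand for 8 of the 10 genes, and *Atf6* and *Creb3l1* had no entry. They were searched on both strands for the ER stress element (CCAAT, any 9 bases, CCACG), which is bound by ATF6 and XBP1, for the unfolded protein response element TGACGTGG, the amino acid response element TTGCATCA, which is bound by ATF4, and the cyclic AMP response element TGACGTCA. The ER stress element was found in *Hspa5*, and in 0.119% of all 32851 promoters. The unfolded protein response element was found in *Sec24d* and *Sec23a*, and in 0.676% of all promoters. The other elements, which 0.895% and 1.79% of all promoters held, matched none of the 8. The windows that hold the matches are printed because they place the letters of the response in a chaperone and in both coat genes. Each runs from 90 bases before to 20 after the RefSeq start, read 5′ to 3′ on the gene's strand, with the match in capitals.
Hspa5: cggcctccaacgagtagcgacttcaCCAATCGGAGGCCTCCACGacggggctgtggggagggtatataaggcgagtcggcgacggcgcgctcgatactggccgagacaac
Sec24d: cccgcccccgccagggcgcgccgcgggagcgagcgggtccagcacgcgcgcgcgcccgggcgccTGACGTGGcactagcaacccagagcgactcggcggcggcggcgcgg
Sec23a: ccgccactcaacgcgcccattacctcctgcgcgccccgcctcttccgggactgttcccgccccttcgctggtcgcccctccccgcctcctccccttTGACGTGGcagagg
The *Hspa5* window lies at chr2:34772000-34772109 on the plus strand, and its match starts 65 bases before the RefSeq start. The *Sec24d* window lies at chr3:123267406-123267515 on the plus strand, with the match starting 26 bases before the RefSeq start. The *Sec23a* window lies at chr12:59011998-59012107 on the minus strand, and its match covers bases 7 to 14 of the transcribed part. For *Hspa5* and *Sec24d* the RefSeq start lies downstream of the start of the gene model whose coordinates are given with the levels, so both matches fall inside that model. A match is a run of letters and not a measured binding site.

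Between Day 2 and Day 7 all 10 genes rose in the whole cultures, and between Day 7 and Day 10 only 3 of them passed the test. *Creb3l1* went on rising and *Creb3l2* fell, so the pair changed in opposite directions at the end of the culture. At Day 7 against Day 2, 10 of 10 genes were called, all higher, where 70.3% of the 18987 genes tested were called and 35.7% were called higher. The median log2 fold change was 1.11 over the 10 genes and 0.014 over all genes. At Day 10 against Day 7, 3 of the 10 were called, 2 higher and 1 lower, where 52.2% of all genes were called and 26.3% were called higher. At Day 10 against Day 2, all 10 were called, 9 higher and 1 lower, where 77.3% of all genes were called and 39% were called higher. With cells thinned to 1000 UMIs 8 of these calls held, all higher, as *Creb3l2* (-0.23) and *Sec23a* (0.23) were no longer called. Thinning lowered the number of all genes called in every comparison of this report, with the counts given in the last section. The comparisons share libraries and do not count as independent of each other.

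**Figure D1:**
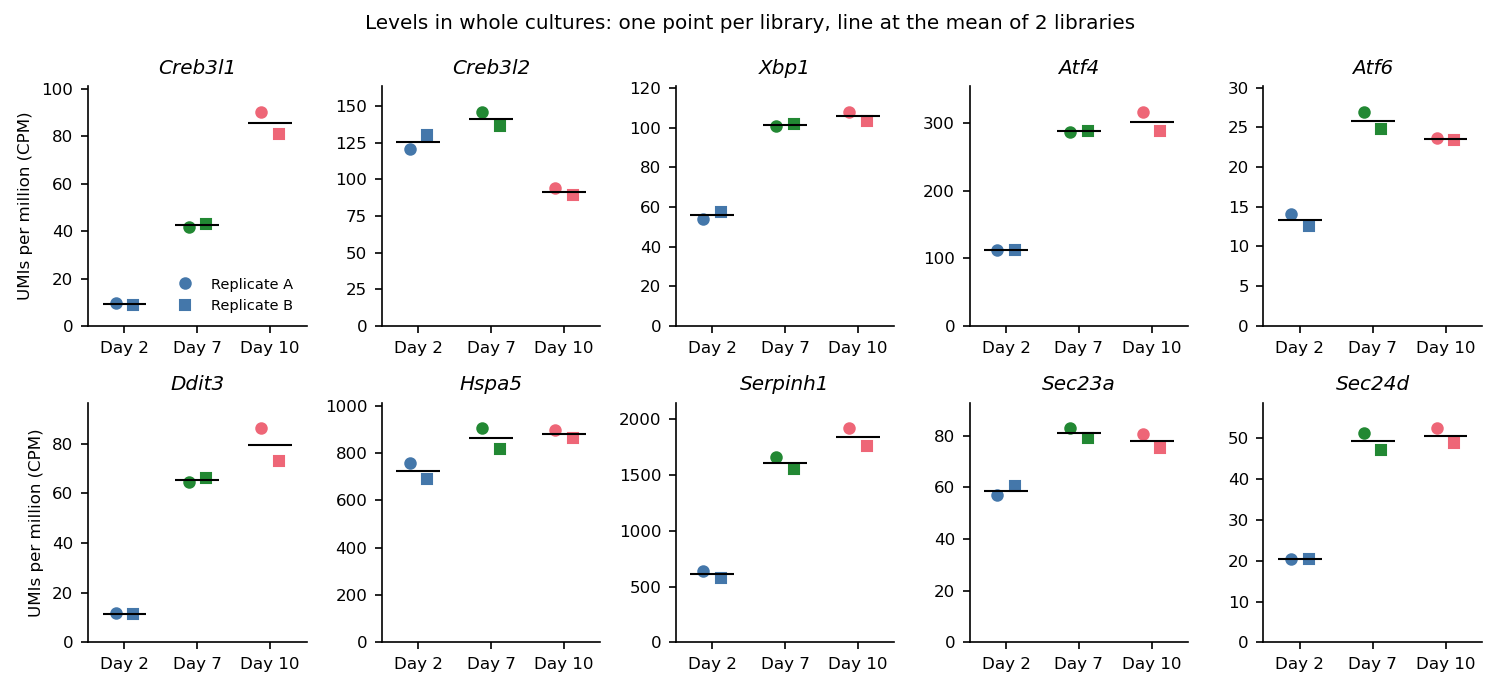
Level of each gene in the whole cultures, in CPM (linear axis from 0), against day of culture, with a point for each library (circle, replicate A; square, replicate B) and a line at the mean of 2 libraries. All genes lie higher at Day 7 than at Day 2, *Creb3l1* climbs again to a mean of 85.7 CPM at Day 10, and *Creb3l2* drops to 91.5 CPM.

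Among the factors cut from the ER membrane, *Creb3l1* (GRCm38 chr2:91982328-92024502, minus strand) measured 9.50 and 8.75 CPM in replicates A and B of Day 2, 42.0 and 42.9 in those of Day 7, then 90.4 and 80.9 in those of Day 10. The 3 days did not overlap, and the highest library held 10.3 times the level of the lowest. The rise was 2.22 ± 0.0705 (SE, log2) from Day 2 to Day 7 (edgeR adjusted p = 2.79e-08) and another 1.01 ± 0.0662 to Day 10 (edgeR adjusted p = 1.79e-05). *Creb3l2* (chr6:37327255-37442146, minus strand) measured 121 and 130 CPM at Day 2, 146 and 136 at Day 7, then 93.9 and 89.1 at Day 10. Its Day 10 libraries lay below all others, with a fall of 0.62 on the log2 scale from Day 7 (fitted change -0.62 ± 0.0611, edgeR adjusted p = 0.000105). Its small rise before that, 0.17 ± 0.0609 (edgeR adjusted p = 0.0333), was lost with RLE factors, with cells of at least 3000 UMIs, without Day 2 replicate A and without Day 7 replicate A. *Atf6* (chr1:170704674-170867771, minus strand) measured 14.1 and 12.5 CPM at Day 2, 27.0 and 24.7 at Day 7, then 23.6 and 23.4 at Day 10. It rose by 0.96 ± 0.0689 to Day 7 (edgeR adjusted p = 2.98e-06), and the change of -0.14 ± 0.0675 after that missed the threshold (edgeR adjusted p = 0.121).

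Of the factors of the stress branches, *Ddit3* (chr10:127290774-127296288, plus strand) changed most, from 11.8 and 11.4 CPM at Day 2 to 64.5 and 66.1 at Day 7, then 86.3 and 72.9 at Day 10. The days did not overlap. The rise to Day 7 was 2.49 ± 0.0812 (edgeR adjusted p = 3.13e-08), and that from Day 7 to Day 10 was 0.28 ± 0.0754 (edgeR adjusted p = 0.0128), which was lost without Day 7 replicate A and without Day 10 replicate A. *Atf4* (chr15:80255184-80257541, plus strand) measured 113 and 113 CPM at Day 2, 287 and 288 at Day 7, then 316 and 287 at Day 10. It rose by 1.35 ± 0.0612 to Day 7 (edgeR adjusted p = 1.97e-07), and the Day 10 libraries overlapped those of Day 7, with a change of 0.07 ± 0.0601 (edgeR adjusted p = 0.345). *Xbp1* (chr11:5520659-5525893, plus strand) measured 53.8 and 57.6 CPM at Day 2, 101 and 102 at Day 7, then 108 and 103 at Day 10. Its rise of 0.86 ± 0.0536 to Day 7 was called (edgeR adjusted p = 1.21e-06), and the further 0.06 ± 0.053 was not (edgeR adjusted p = 0.367).

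The chaperones differed in how far they moved. *Serpinh1* (chr7:99345376-99353239, minus strand) measured 643 and 575 CPM at Day 2, 1658 and 1559 at Day 7, then 1921 and 1759 at Day 10, without overlap between days. It rose by 1.40 ± 0.0834 to Day 7 (edgeR adjusted p = 9.48e-07). The further 0.19 ± 0.0818 missed the threshold in the edgeR test (adjusted p = 0.0764) and passed it with DESeq2, with a replicate block and without either Day 2 library. *Hspa5* (chr2:34771970-34777547, plus strand) measured 757 and 692 CPM at Day 2, 905 and 819 at Day 7, then 898 and 866 at Day 10. Its rise of 0.25 ± 0.0755 to Day 7 was called (edgeR adjusted p = 0.0155) and was lost without Day 7 replicate A. The ER chaperone thus rose 1.19-fold where the collagen chaperone rose 2.64-fold, and its Day 7 and Day 10 libraries overlapped.

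The coat genes rose to Day 7, and their changes after that were not called. *Sec24d* (chr3:123267455-123365641, plus strand) measured 20.4 and 20.5 CPM at Day 2, 51.4 and 47.1 at Day 7, then 52.5 and 48.8 at Day 10. Its rise to Day 7 was 1.27 ± 0.0615 (edgeR adjusted p = 2.84e-07) and its change after that 0.04 ± 0.0599 (edgeR adjusted p = 0.6). *Sec23a* (chr12:58958383-59012017, minus strand) measured 56.9 and 60.5 CPM at Day 2, 83.0 and 79.1 at Day 7, then 80.6 and 75.2 at Day 10. It rose by 0.46 ± 0.0578 to Day 7 (edgeR adjusted p = 9.76e-05), and the change of -0.06 ± 0.0575 after that was not called (edgeR adjusted p = 0.428). Both genes hold the unfolded protein response element printed above.

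The tissue of these libraries changed over the same days. The summed level of 13 chondrocyte markers was 1246 and 1318 CPM at Day 2, 10526 and 9979 at Day 7, then 6162 and 5632 at Day 10, and that of 38 matrix genes went from 5508 and 5471 to 36934 and 34630 and then 37015 and 34513. Muscle markers (7 genes) fell from 506 and 385 CPM at Day 2 to 57.5 and 27.4 and then 3.61 and 9.34, and immune markers (7 genes) were 21.2 and 10.4, 27.7 and 39.5, and 104 and 130. The 11 genes of the response to cell dissociation lay at 1504 and 1344, 1214 and 1299, and 1397 and 1467 CPM. The 7 bone markers went from 33.5 and 37.1 CPM at Day 2 to 82.1 and 79.5 and then 737 and 978, the 8 hypertrophic markers from 486 and 419 to 939 and 936 and then 2716 and 3069, and the 7 markers of fibrous tissue and perichondrium from 1068 and 1111 to 5242 and 4991 and then 9657 and 8630. The first and second lists share *Ibsp*. These 3 sums and that of the immune markers were higher again at Day 10, as *Creb3l1* was. The 6 markers of dividing cells went from 1108 and 1157 CPM to 476 and 484 and then 372 and 434, and the 6 tendon markers from 153 and 146 to 130 and 131 and then 212 and 193. The median mitochondrial share of UMIs per cell, a sign of cell quality, was 1.85% and 2.17% at Day 2, 2.55% and 2.69% at Day 7, then 3.96% and 3.60% at Day 10, without overlap between days, under upper limits for a cell of 25%, 30% and 40%. The part of these shifts in the levels above was not tested.

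The rest of the pathway was described with 7 lists of 129 other genes. At Day 7 against Day 2 most genes of each list were called higher, where 35.7% of all genes were. Of 18 enzymes and chaperones that modify collagen, all 18 rose, with a median of 1.40 over the list. *Colgalt2*, a collagen galactosyltransferase, rose by 3.50 ± 0.145, *P3h1*, a prolyl 3-hydroxylase, by 2.19 ± 0.0758 and *P4ha2*, a subunit of prolyl 4-hydroxylase, by 1.99 ± 0.0603. Of 19 targets of the integrated stress response, the arm that runs through *Atf4*, 17 rose and 1 fell, with a median of 1.97. *Trib3* rose by 4.01 ± 0.0804, *Stc2* by 3.59 ± 0.0884 and the amino acid transporter *Slc7a3* by 2.93 ± 0.0871. Of 14 genes of ER-associated degradation, 13 rose, with a median of 0.84, among them *Herpud1* by 1.73 ± 0.0638, *Selenos* by 1.22 ± 0.0532 and *Derl1* by 1.17 ± 0.0613.

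In the other lists some members were not called or fell. Of 22 genes of COPII and ER exit, 18 rose and 1 fell, with a median of 0.50, among them the coat gene *Sec24a* (1.15 ± 0.0532) and the cargo receptors *Lman1* (0.99 ± 0.0605) and *Surf4* (0.86 ± 0.0573). Of 22 genes of the translocon and the signal peptidase, which move new chains into the ER, 18 rose and none fell, with a median of 0.45 and *Ssr4* (1.35 ± 0.0712), *Sec61a1* (1.34 ± 0.0676) and *Ssr1* (0.87 ± 0.0669) at the head. Of 21 ER chaperones and foldases, 13 rose and 2 fell, with a median of 0.34. The oxidase *Ero1l* rose by 2.02 ± 0.0574, the *Hspa5* exchange factor *Sil1* by 1.39 ± 0.048 and *Dnajb9* by 1.03 ± 0.0636. Of 14 sensors and other factors, 10 rose and 4 fell, with a median of 0.48 and with *Atf5* at 2.86 ± 0.0633, *Cebpb* at 2.23 ± 0.0963 and *Ppp1r15a*, which restores translation, at 1.10 ± 0.0945.

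From Day 7 to Day 10 no list moved in a single direction, and 26.3% of all genes were called higher and 52.2% in either direction. Collagen modifiers split into 6 higher and 7 lower of 18, with *Colgalt2* at -1.08 ± 0.124, *Plod2*, a lysyl hydroxylase, at -0.97 ± 0.0792 and *P3h2* at 0.74 ± 0.0839. Chaperones and foldases split into 5 and 5 of 21, with the disulfide isomerase *P4hb* at -0.50 ± 0.0731, *Hyou1* at -0.49 ± 0.0771 and *Dnajb11* at 0.34 ± 0.0456. Targets of the integrated stress response counted 8 higher and 2 lower of 19, with *Slc3a2* at 0.43 ± 0.0617, *Nupr1* at 0.42 ± 0.103 and *Stc2* at -0.41 ± 0.076. Sensors counted 5 higher and 2 lower of 14, with *Cebpb* at 0.54 ± 0.0913 and the kinases *Eif2ak3* and *Eif2ak4* at -0.48 ± 0.0663 and -0.40 ± 0.0522. ER-associated degradation counted 5 and 2 of 14, COPII and ER exit 7 and 6 of 22, and the translocon and signal peptidase 6 and 4 of 22. Counted in either direction, 13 of 18 collagen modifiers were called, and the other 6 lists lay near the share over all genes.

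**Figure D2:**
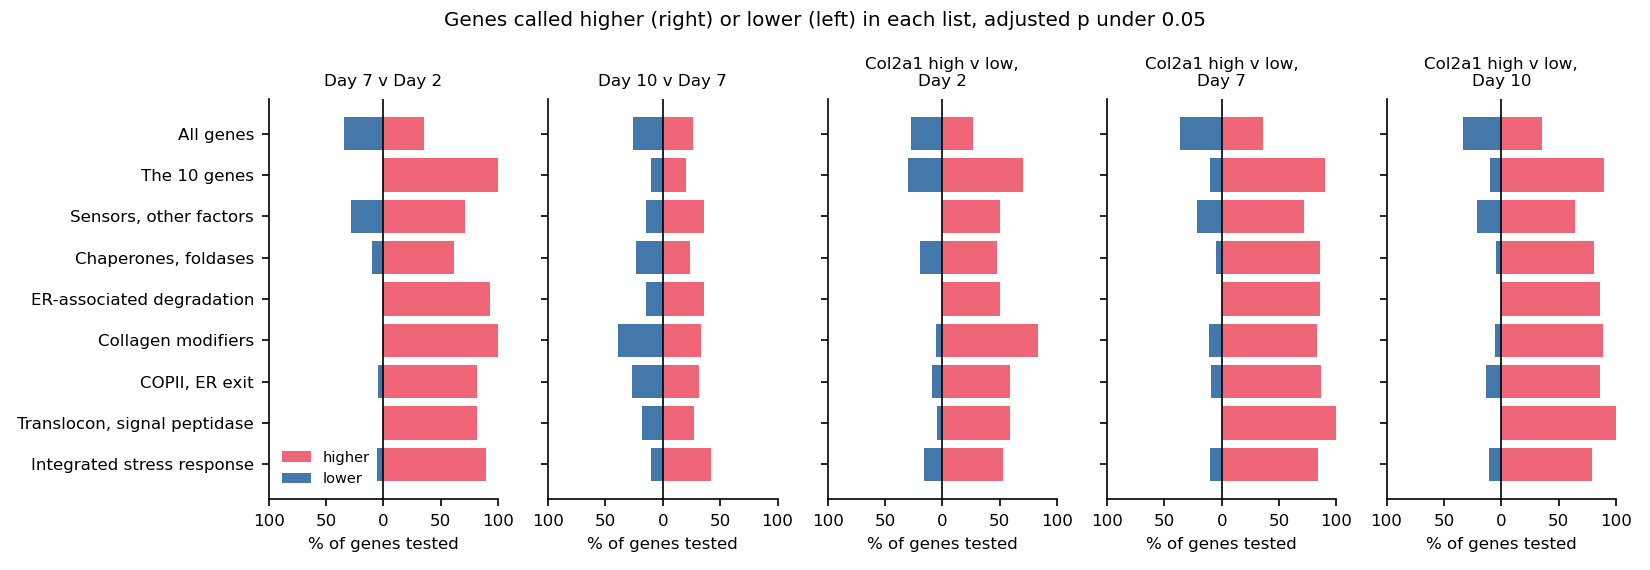
Share of the tested genes of each list called higher (red, to the right) or lower (blue, to the left) at an adjusted p under 0.05, in % (linear axis), for all genes, the 10 genes and the 7 other lists of the pathway, in 5 comparisons. Bars reach far to the right at Day 7 against Day 2 and in *Col2a1*-high cells at Day 7 and Day 10, where all 22 genes of the translocon and signal peptidase were higher, and reach to both sides in all 7 lists at Day 10 against Day 7.

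To set the genes against their collagen cargo, cells with at least 3000 UMIs were ranked by the *Col2a1* share of their UMIs inside 10 strata of depth of their library. The top 25% of each stratum were called *Col2a1*-high and the bottom 25% *Col2a1*-low, and UMIs were summed per library and class. The depth minimum kept 69.2% to 93.2% of the cells of a library, except in Day 2 replicate B, where it kept 58.6%. A class held 2200 to 2410 cells a library, and high and low cells had near equal depths, with medians of 24819 and 24782 UMIs in Day 10 replicate B, where they differed most. The median mitochondrial share was higher in the high cells of all 6 libraries, at 1.92% and 2.32% against 1.78% and 2.11% at Day 2, 3.39% and 3.29% against 2.82% and 2.81% at Day 7, then 3.91% and 3.55% against 3.81% and 3.26% at Day 10. The high cells had fewer genes detected at Day 7 (medians of 3872.5 and 3617 against 4143.5 and 3945) and at Day 10, and more at Day 2. The part of these values in the class differences was not tested. The *Col2a1* level in high and low cells was 1476 and 22.7 CPM in Day 2 replicate A, 24222 and 410 in Day 7 replicate A and 22793 and 149 in Day 10 replicate A, which describes the rule and is no result. High cells at Day 2 thus held far less *Col2a1* than high cells later. No *Col2a1* UMI was counted in 52.5% and 61.6% of the low cells of Day 2 (replicates A and B). These shares were 0.0429% and 0.339% at Day 7 and 1.76% and 2.67% at Day 10. Cells with equal shares were ordered at random, so the ranking was coarser at Day 2. Its part in the smaller differences of that day was not tested. Doublets were not removed and free RNA in droplets was not corrected.

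The label of the classes was checked with markers. The 13 chondrocyte markers summed to 2748 and 2996 CPM in the *Col2a1*-high cells of Day 2 against 264 and 295 in the low cells, and 12 of 13 were called higher at Day 2 and 13 of 13 at Day 7 and Day 10. The contractile, muscle and immune markers lay higher in the low cells, and the bone markers in the high cells. The 5 contractile markers summed to 1876 and 1386 CPM in high and 5944 and 4849 in low cells at Day 2, and to 457 and 539 against 7642 and 7649 at Day 7. The 7 muscle markers lay at 105 and 33.2 CPM in high and 1441 and 1234 in low cells at Day 2, and at no more than 71.4 CPM in each class of Day 7 and Day 10. The 7 immune markers were at most 19.8 CPM in any high class and 37.3 to 270 CPM in the low classes. The 7 bone markers summed to 47.0 and 51.1 CPM in high and 18.4 and 20.03 in low cells at Day 2, 95.3 and 91.6 against 46.3 and 45.1 at Day 7, then 958 and 1044 against 151 and 402 at Day 10. The 8 hypertrophic markers lay lower in the high cells at Day 2 and Day 7 and higher at Day 10 (2809 and 2901 against 2346 and 2683 CPM), and the 7 markers of fibrous tissue and perichondrium lower in all 6 libraries. The 6 tendon markers were also lower in the high cells of all 6 libraries, at 97.6 and 72.5 against 166 and 185 CPM at Day 2, 74.3 and 82.2 against 194 and 187 at Day 7, then 118 and 114 against 251 and 223 at Day 10. *Creb3l1* was lower in the high cells too, while the bone markers were higher. The classes were also set without cells of other lineages, that is cells with 5 or more UMIs of muscle, immune, erythroid, endothelial or epithelial markers. These were 6.44% and 6.37% of the cells of at least 3000 UMIs at Day 2, 0.965% and 0.985% at Day 7, then 1.77% and 2.80% at Day 10. Contractile, tendon and fibrous markers were not part of the rule, so cells that hold them stayed in. The omission could therefore change little at Day 7 and Day 10. The rule was chosen after the markers had been seen.

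At Day 7 and Day 10 the *Col2a1*-high cells held more of 9 of the 10 genes, and less *Creb3l1*. At Day 2 the differences were smaller than at Day 7 apart from those of *Creb3l2* and *Atf6*, and *Creb3l1*, *Atf6* and *Ddit3* were lower in the high cells. At Day 2, 10 of 10 genes were called, 7 higher and 3 lower, where 54% of the 17056 genes tested were called and 27.1% were called higher. At Day 7, 10 were called, 9 higher and 1 lower, where 71.6% of all genes were called and 35.5% were called higher. At Day 10, 10 were called, again 9 and 1, where 69.1% were called and 35.8% were called higher. The median over the 10 genes was 0.14, 0.71 and 0.45 at the 3 days. Without cells of other lineages the calls were 4 higher and 3 lower at Day 2, as *Xbp1*, *Hspa5* and *Serpinh1* were no longer called. They were 9 higher and 1 lower at Day 7 and at Day 10, where few cells were left out.

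**Figure D3:**
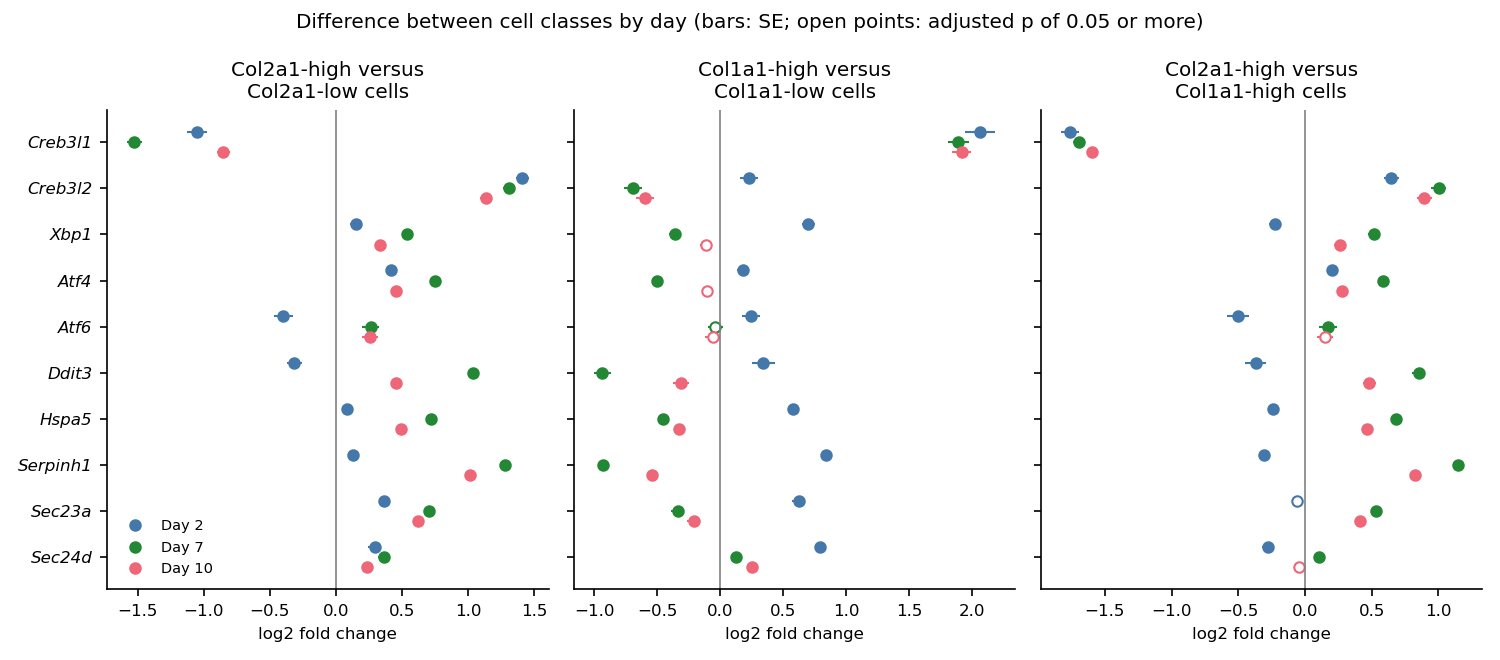
Log2 fold change (horizontal axis) of the 10 genes between cell classes at Day 2 (blue), Day 7 (green) and Day 10 (red), with bars for the SE and open points where the adjusted p was 0.05 or more. *Creb3l1* lies left of 0 in *Col2a1*-high cells and near 2 in *Col1a1*-high cells on all days, while *Serpinh1* moves from 0.13 at Day 2 to 1.28 at Day 7 in the first panel.

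*Creb3l1* and *Creb3l2* separated by collagen on each day. *Creb3l1* measured 6.23 and 5.31 CPM in the *Col2a1*-high cells of Day 2 (replicate A, then B) against 12.8 and 11.2 in the low cells, 21.8 and 22.02 against 62.7 and 63.2 at Day 7, then 50.8 and 52.0 against 98.2 and 87.4 at Day 10. High cells lay below low cells in all 6 libraries. The differences were -1.05 ± 0.0752, -1.52 ± 0.0539 and -0.85 ± 0.0474 (edgeR adjusted p = 1.23e-06, 1.69e-09 and 6.41e-08). *Creb3l2* measured 174 and 202 CPM against 68.8 and 72.2 at Day 2, 224 and 208 against 89.6 and 84.5 at Day 7, then 159 and 144 against 68.3 and 69.6 at Day 10. High cells lay above low cells in all 6 libraries, by 1.41 ± 0.0471, 1.31 ± 0.0468 and 1.14 ± 0.0469 (edgeR adjusted p = 5.22e-09, 1.82e-09 and 6.53e-09). *Creb3l2* was thus 2.07- to 2.80-fold higher in the high cells of every library. Levels inside the high cells rose with the day for *Creb3l1*, as they did in the whole culture.

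The chaperones differed from *Creb3l2* in that their difference appeared between Day 2 and Day 7. *Serpinh1* measured 663 and 619 CPM in high and 622 and 551 in low cells at Day 2, 2573 and 2466 against 1064 and 1011 at Day 7, then 3044 and 2843 against 1520 and 1395 at Day 10. The differences were 0.13 ± 0.0242, 1.28 ± 0.0243 and 1.01 ± 0.0241 (edgeR adjusted p = 0.00109, 2.33e-11 and 1.41e-10). At Day 2 high and low cells overlapped between replicates, and the value was 0.05 and no longer called without cells of other lineages, 0.0021 and not called with no depth strata, and not called with no library term, while the later values were 1.25 and 0.96. *Hspa5* measured 762 and 703 CPM against 713 and 667 at Day 2, 1235 and 1091 against 722 and 691 at Day 7, then 1138 and 1072 against 791 and 776 at Day 10. The high cells of Day 7 and Day 10 lay above all other classes, and the classes of Day 2 overlapped. The differences were 0.09 ± 0.0303, 0.72 ± 0.0304 and 0.50 ± 0.0303 (edgeR adjusted p = 0.0351, 6.77e-09 and 1.33e-07), and that of Day 2 was lost under 10 of 16 alternatives, among them DESeq2 and the omission of either Day 2 library, and was -0.01 without cells of other lineages. The mean of the *Col2a1*-high cells went from 732 CPM at Day 2 to 1163 at Day 7, and that of the low cells from 690 to 707.

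*Ddit3* and *Atf6* changed direction. *Ddit3* measured 10.8 and 10.4 CPM in high and 13.3 and 13.0 in low cells at Day 2, then 83.6 and 92.5 against 42.3 and 43.2 at Day 7, then 117 and 96.1 against 83.7 and 71.8 at Day 10. The differences were -0.32 ± 0.0563, 1.04 ± 0.0411 and 0.45 ± 0.0385 (edgeR adjusted p = 0.000847, 3.95e-09 and 1.82e-06), and that of Day 2 was -0.16 and not called with cells thinned to 3000 UMIs. The 11 dissociation-response genes were higher in the high cells at Day 2 (1885 and 1704 against 966 and 871 CPM), lower at Day 7 (804 and 829 against 1365 and 1499) and close at Day 10 (1203 and 1280 against 1300 and 1304), so their sum lay opposite to *Ddit3* at Day 2 and Day 7. Its part in the *Ddit3* difference was not tested. *Atf6* measured 11.98 and 11.3 against 16.9 and 13.7 CPM at Day 2, 31.0 and 27.4 against 24.6 and 24.0 at Day 7, then 28.2 and 25.6 against 22.4 and 22.6 at Day 10. The differences were -0.40 ± 0.0717, 0.26 ± 0.0624 and 0.26 ± 0.0608 (edgeR adjusted p = 0.000934, 0.00335 and 0.00325). These calls were lost without replicate A of the day in question, that of Day 2 also with cells thinned to 3000 UMIs and that of Day 10 with DESeq2.

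*Atf4* and *Xbp1* were higher in the high cells on all days. *Atf4* measured 129 and 128 against 97.0 and 95.6 CPM at Day 2, 359 and 371 against 211 and 224 at Day 7, then 396 and 348 against 283 and 260 at Day 10, with differences of 0.42 ± 0.0305, 0.75 ± 0.0294 and 0.45 ± 0.029 (edgeR adjusted p = 1.42e-06, 3.69e-09 and 2.01e-07). High and low cells did not overlap on any day. *Xbp1* measured 57.1 and 59.1 against 50.8 and 54.1 CPM at Day 2, 128 and 130 against 86.4 and 90.9 at Day 7, then 131 and 121 against 99.1 and 101 at Day 10. Its differences were 0.15 ± 0.0416, 0.54 ± 0.0394 and 0.34 ± 0.0387 (edgeR adjusted p = 0.0116, 5.24e-07 and 2.02e-05), of which that of Day 2 was lost without Day 2 replicate A and with no depth strata and fell to 0.08, not called, without cells of other lineages.

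Both coat genes were higher in the *Col2a1*-high cells on all days, and *Sec23a* by more. *Sec23a* measured 64.1 and 67.2 against 49.9 and 51.9 CPM at Day 2, 106 and 105 against 66.5 and 63.6 at Day 7, then 110 and 101 against 70.0 and 66.8 at Day 10. The differences were 0.37 ± 0.0348, 0.70 ± 0.034 and 0.62 ± 0.0333 (edgeR adjusted p = 9.92e-06, 1.91e-08 and 4.7e-08). *Sec24d* measured 22.02 and 22.9 against 18.4 and 18.2 CPM at Day 2, 58.1 and 54.6 against 46.6 and 41.2 at Day 7, then 57.3 and 54.3 against 49.3 and 45.3 at Day 10. Its differences were 0.29 ± 0.0475, 0.36 ± 0.0411 and 0.24 ± 0.0399 (edgeR adjusted p = 0.000445, 1.79e-05 and 0.000343), and that of Day 10 was 0.20 and not called with cells thinned to 3000 UMIs. The difference between the 2 coat genes was not tested.

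Whether the high-low difference itself differed between days was tested in the same fit. From Day 2 to Day 7 it changed for 8 of the 10 genes, 7 upward and *Creb3l1* downward, where 52% of all genes changed. *Ddit3* gained 1.36 ± 0.0696, *Serpinh1* 1.15 ± 0.0341, *Atf6* 0.66 ± 0.095 and *Hspa5* 0.63 ± 0.0429, while *Creb3l2* (-0.10 ± 0.0657) and *Sec24d* (0.07 ± 0.0629) did not pass the test. From Day 7 to Day 10 it changed for 6 of the 10 genes, where 22.1% of all genes changed, with *Ddit3* at -0.59 ± 0.0562, *Atf4* at -0.30 ± 0.0412 and *Creb3l1* at 0.67 ± 0.0718. From Day 2 to Day 10 it changed for 7 of the 10, where 50.5% of all genes changed. With each cell thinned to 3000 UMIs, 6, 2 and 4 genes passed, and *Creb3l1* between Day 2 and Day 7 was at 0.12 in place of -0.47, and not called. Fewer of all genes passed then too, with the counts given in the last section. The 6 genes from Day 7 to Day 10 became 4 without Day 7 replicate A, and 2 without a library term in the fit.

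Splitting the cells into 5 bins of the *Col2a1* share showed where along the range the levels moved. At Day 7 *Serpinh1* went from 1089, 1026 and 1572 CPM in bins 1 to 3 of replicate A to 2211 and 2668 in bins 4 and 5, and from 1041, 987 and 1467 to 2048 and 2572 in replicate B. At Day 10 bins 1 to 3 were level (1547, 1538 and 1539 CPM in replicate A, 1425, 1410 and 1368 in replicate B), bin 4 held 1958 and 1637, and bin 5 held 3251 and 3134. *Col2a1* itself, which set the bins, ran from 7076 to 26070 CPM over bins 3 to 5 of Day 7 replicate A and from 550 to 26431 over the same bins of Day 10 replicate A. Its bin 4 held 15272 and 14059 CPM in replicates A and B of Day 7, and 5189 and 3683 in those of Day 10.

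The factors moved along the bins in different ways. *Creb3l1* at Day 10 held 101, 99.0, 105 and 100 CPM in bins 1 to 4 of replicate A and 45.2 in bin 5, and in replicate B 87.4, 90.6, 84.5 and 97.2 and then 40.2, so its drop also lay in the last bin. At Day 7 it fell from 65.5 to 21.9 CPM and from 65.3 to 22.5 over the 5 bins, without a rise at any step. *Creb3l2* rose at each of the 4 steps in all Day 2 and Day 7 libraries. *Ddit3* at Day 7 was highest in bin 4 and not bin 5 in both replicates, at 98.1 and 84.1 CPM in replicate A and 101 and 91.2 in replicate B. At Day 10 bin 5 held its highest level, 126 and 105 CPM, after 74.6 and 60.7 in bin 4. Bins are a description, and no test was made across them.

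**Figure D4:**
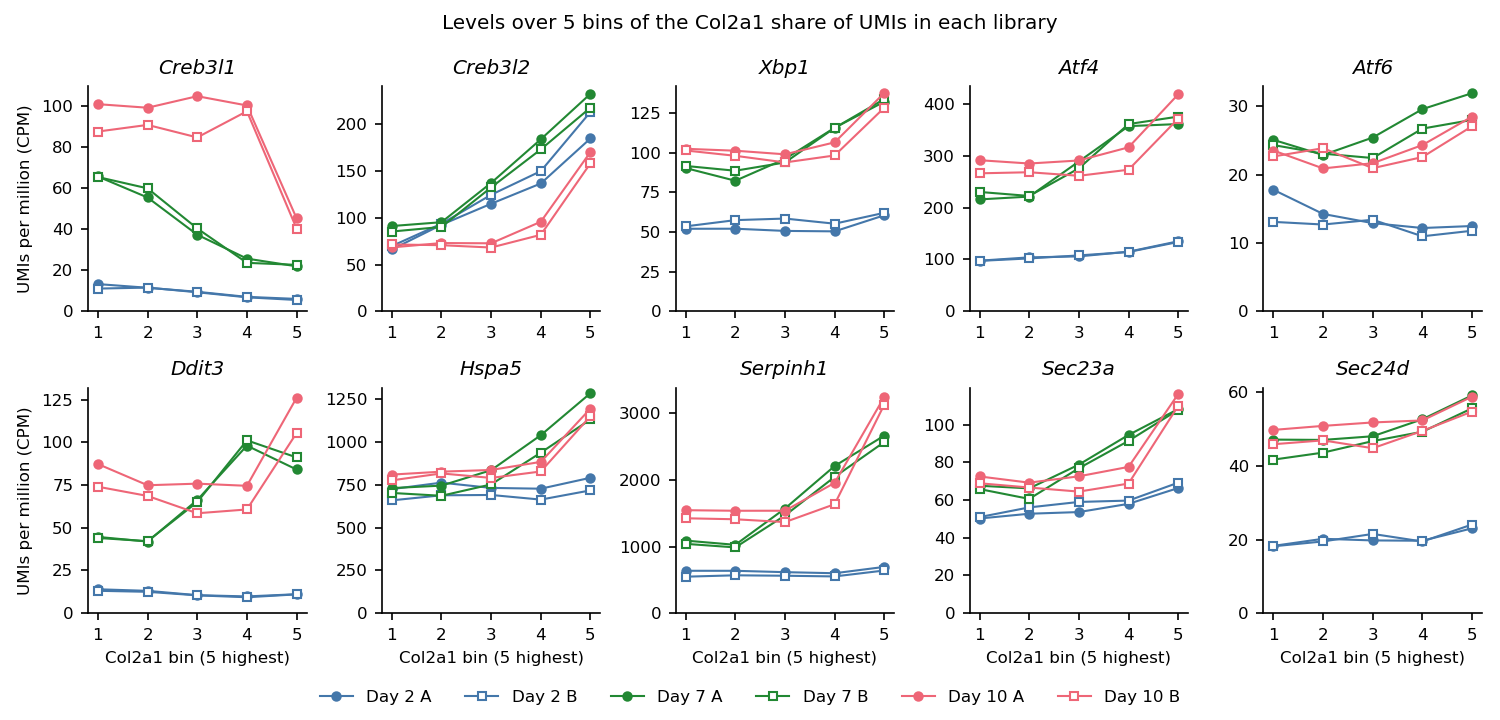
Level (CPM, linear axis from 0) of each gene in 5 bins of the *Col2a1* share of UMIs, bin 5 being the highest, with a line for each library (filled circle, replicate A; open square, replicate B) coloured by day. At Day 10 *Creb3l1* drops and *Serpinh1*, *Sec23a* and *Creb3l2* climb mainly in bin 5, whereas at Day 7 *Creb3l1* falls and *Creb3l2* climbs at each step and *Serpinh1* and *Sec23a* climb from bin 2 on, and the Day 2 lines of *Ddit3* stay under 14 CPM.

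The genes whose level over these 30 points (6 libraries by 5 bins) was most like that of each member were named among 5699 genes with a mean of at least 20 CPM, by Pearson's r of log2(CPM + 1). The points share libraries, and they move with both the day and the *Col2a1* share that set the bins, so r is a description. *Creb3l1* was nearest to *Emp2* (r = 0.990), *Col1a2* (0.988) and *Card19* (0.986), and *Creb3l2* to *Rint1* (0.966), *Helz* (0.960) and *Rbm5* (0.959). *Serpinh1* was nearest to *Sar1a* (0.993), the GTPase that starts the COPII coat, *Chid1* (0.991) and *Herpud1* (0.991), and *Sec24d* to *Atf5* (0.990), *Rabac1* (0.989) and the collagen chaperone *Fkbp10* (0.988). *Atf4* was nearest to *Bscl2* (0.996), *Tmed3* (0.995) and *Cars* (0.994), and *Xbp1* to *Slc7a3* (0.992), *Gars* (0.989) and *Cars* (0.988), where *Cars* and *Gars* encode tRNA synthetases. *Ddit3* was nearest to *Cyb5r1* (0.993), *Snhg12* (0.992) and *Slc25a39* (0.992), *Atf6* to *Nucb2* (0.967), *Syne1* (0.964) and *Ube2j1* (0.963), *Hspa5* to *Mesd* (0.956), *Ssr3* (0.950) and *B3gat3* (0.950), and *Sec23a* to *Ssr3* (0.988), *Sptlc2* (0.983) and *Cpe* (0.977). Between members, *Xbp1* and *Ddit3* had r = 0.971, and *Creb3l2* and *Creb3l1* had r = -0.518.

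In each of the other lists more genes were called higher than lower in the *Col2a1*-high cells of Day 7 and Day 10, where 35.5% and 35.8% of all genes were called higher. At Day 7 all 22 genes of the translocon and signal peptidase were higher, with *Ssr2* at 1.20 ± 0.0268, *Ssr1* at 1.02 ± 0.036 and *Ssr4* at 0.89 ± 0.0236. Collagen modifiers counted 15 higher and 2 lower of 18, with *Colgalt2* at 5.04 ± 0.0946, *Plod2* at 2.70 ± 0.0558 and *P4ha2* at 2.39 ± 0.0386. Chaperones and foldases counted 18 and 1 of 21, with *Ero1l* at 1.89 ± 0.0522, *P4hb* at 1.27 ± 0.026 and *Sil1* at 1.03 ± 0.0537. ER-associated degradation counted 12 and 0 of 14 (*Herpud1* 1.16 ± 0.0346, *Erlec1* 1.11 ± 0.0324, *Selenos* 0.87 ± 0.0293), and COPII and ER exit 19 and 2 of 22 (*Lman1* 1.23 ± 0.0253, *Sec16a* 0.78 ± 0.047, *Tmed9* 0.77 ± 0.0259). Targets of the integrated stress response counted 16 and 2 of 19 (*Stc2* 2.23 ± 0.0484, *Vldlr* 2.11 ± 0.0494, *Trib3* 1.74 ± 0.0395), and sensors 10 and 3 of 14, with *Ern1*, the sensor that splices *Xbp1*, at 1.45 ± 0.128, *Eif2ak3* at 0.95 ± 0.0528 and *Atf5* at 0.82 ± 0.0337.

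At Day 10 the counts of genes higher and lower were 22 and 0 for the translocon and signal peptidase, 17 and 1 for chaperones, 16 and 1 for collagen modifiers, 19 and 3 for COPII and ER exit, 12 and 0 for ER-associated degradation, 15 and 2 for the integrated stress response and 9 and 3 for sensors, among them *Ern1* at 2.03 ± 0.125. At Day 2 they were 13 and 1, 10 and 4, 15 and 1, 13 and 2, 7 and 0, 10 and 3, and 7 and 0 in the same order, of 22, 21, 18, 22, 14, 19 and 14 genes, where 27.1% of all genes were called higher. The leading genes of Day 2 were others, with the signal peptidase subunit *Sec11c* at 1.17 ± 0.0468, *Fkbp14* at 1.121 ± 0.0438, *P3h3* at 1.05 ± 0.0345, *Aldh1l2* at 1.42 ± 0.0515 and *Chac1* at 1.20 ± 0.0583.

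The same cells were also ranked by *Col1a1*, the collagen of bone, tendon and the perichondrium. This ranking was coarser at Day 2 too, where 53.9% and 40.7% of the *Col1a1*-low cells held no *Col1a1* UMI. These shares were 2.58% and 7.08% at Day 7 and 0.753% and 1.45% at Day 10. At Day 2 the *Col1a1*-high cells held more of all 10 genes, while they held less of 7 genes at Day 7 and of 5 at Day 10, and more *Creb3l1* and *Sec24d* on both days. The calls were 10 higher at Day 2, where 45.6% of the 16994 genes tested were called, 2 higher and 7 lower at Day 7, where 65.4% were called, and 2 higher and 5 lower at Day 10, where 60.2% were called. *Creb3l1* measured 15.2 and 14.9 CPM in *Col1a1*-high against 4.25 and 2.89 in *Col1a1*-low cells at Day 2, 65.7 and 70.3 against 19.0 and 17.7 at Day 7, then 139 and 134 against 38.7 and 33.6 at Day 10. It was higher in the high cells of all 6 libraries, by 2.06 ± 0.119, 1.89 ± 0.0834 and 1.92 ± 0.0743 (edgeR adjusted p = 1.81e-06, 9.97e-08 and 5.85e-08). *Serpinh1* was higher at Day 2 (0.84 ± 0.0367, edgeR adjusted p = 4.14e-07) and lower at Day 7 (-0.93 ± 0.0364, edgeR adjusted p = 4.56e-08) and Day 10 (-0.54 ± 0.0361, edgeR adjusted p = 1.86e-06). *Hspa5* was at 0.58 ± 0.0349, -0.46 ± 0.0348 and -0.33 ± 0.0347, the last lost with no depth strata. At Day 2 only 6 of the 10 calls held with cells thinned to 3000 UMIs, and 6 with no library term in the fit. Those lost both times were *Creb3l2* (0.23 ± 0.07), *Atf4* (0.18 ± 0.0469), *Ddit3* (0.34 ± 0.0899) and *Atf6* (0.24 ± 0.0696). The calls of *Creb3l2* and *Atf4* were also lost without cells of other lineages, those of *Creb3l2*, *Atf4* and *Ddit3* without Day 2 replicate A, those of *Atf4* and *Atf6* without Day 2 replicate B, and those of *Creb3l2* and *Atf6* with DESeq2. The 7 bone markers at Day 10 summed to 1837 and 2936 CPM in *Col1a1*-high and 563 and 506 in *Col1a1*-low cells, and the 6 tendon markers were higher in the *Col1a1*-high cells of all 6 libraries, at Day 7 with 223 and 228 against 64.7 and 63.6 CPM. The part of both lists in the *Creb3l1* differences was not tested. The median mitochondrial share was lower in the *Col1a1*-high cells at Day 2, at 1.87% and 2.18% against 1.92% and 2.28%. It was higher in them at Day 7 (3.84% and 3.44% against 2.78% and 2.75%) and Day 10 (4.22% and 3.63% against 3.59% and 3.25%). Its part in the class differences was not tested. At Day 2 *Col2a1* was at 484 and 516 CPM in *Col1a1*-high and 541 and 660 in *Col1a1*-low cells, and the classes lay far apart later, at 2270 and 1856 against 18482 and 17735 at Day 7.

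*Sec24d*, like *Creb3l1*, was called higher in the *Col1a1*-high cells of both later days. *Atf6* was called in neither direction on these days, nor were *Xbp1* and *Atf4* at Day 10. *Sec24d* measured 55.4 and 51.1 CPM in *Col1a1*-high against 51.2 and 46.5 in *Col1a1*-low cells at Day 7, then 60.4 and 55.2 against 51.0 and 46.0 at Day 10. The differences were 0.12 ± 0.0373 (edgeR adjusted p = 0.0155) and 0.25 ± 0.0362 (edgeR adjusted p = 0.000266). High and low cells overlapped at Day 7, and that call was lost without either Day 7 library, with DESeq2, with wider classes, with thinned cells, with no library term and without cells of other lineages. *Sec23a* went the other way, at -0.34 ± 0.0506 and -0.21 ± 0.0496 (edgeR adjusted p = 0.000295 and 0.00497), the latter lost without Day 10 replicate A and, at -0.10, with cells thinned to 3000 UMIs.

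Setting both cargos against each other directly, cells in the top 25% for *Col2a1* and not for *Col1a1* were compared with the reverse, at 1716 to 2257 cells a class and library. At Day 2, 2 of the 10 genes were higher and 7 lower in the *Col2a1*-high cells, where 47.2% of the 16628 genes tested were called. With cells thinned to 3000 UMIs these counts were 1 and 4, as *Atf4*, *Atf6*, *Ddit3* and *Sec24d* were no longer called, and *Ddit3* was also lost without Day 2 replicate A. At Day 7, 9 were higher and 1 lower, where 69.3% were called, and at Day 10, 7 and 1, where 66.3% were called. The Day 7 counts were 7 and 1 with DESeq2, with no library term and without either Day 7 library, as *Atf6* and *Sec24d* were lost each time. *Creb3l1* measured 5.06 and 4.52 against 16.4 and 16.2 CPM at Day 2, 21.3 and 20.7 against 65.9 and 69.9 at Day 7, then 44.5 and 44.2 against 136 and 132 at Day 10, so the *Col2a1*-high cells held between 0.279 and 0.335 of the level of the *Col1a1*-high cells in all 6 libraries. The differences were -1.76 ± 0.0702, -1.69 ± 0.0446 and -1.60 ± 0.0382 (edgeR adjusted p = 1.99e-09, 1.41e-11 and 8.11e-12). *Creb3l2* measured 174 and 204 against 121 and 120 CPM at Day 2, 224 and 208 against 112 and 103 at Day 7, then 162 and 146 against 81.7 and 84.0 at Day 10, and was higher by 0.65 ± 0.0552, 1.003 ± 0.0551 and 0.89 ± 0.0555 (edgeR adjusted p = 1.69e-06, 9.36e-09 and 3.34e-08). These values and calls for both genes also held without cells of other lineages, at -1.71 to -1.61 and at 0.66 to 1.01.

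The chaperones turned over between Day 2 and Day 7 in this comparison too, which reused cells of the classes above and was not independent of them. *Serpinh1* measured 640 and 609 CPM in *Col2a1*-high and 822 and 724 in *Col1a1*-high cells at Day 2, then 2597 and 2495 against 1171 and 1128 at Day 7 and 3084 and 2907 against 1731 and 1653 at Day 10. The differences were -0.30 ± 0.029, 1.15 ± 0.029 and 0.82 ± 0.0288 (edgeR adjusted p = 4.38e-06, 1e-11 and 1.86e-10). *Hspa5* went from -0.24 ± 0.0302 to 0.68 ± 0.0303 and 0.46 ± 0.0301 (edgeR adjusted p = 4.52e-05, 1.27e-09 and 5.24e-08). *Sec24d* was lower in the *Col2a1*-high cells at Day 2 (-0.28 ± 0.0455, and -0.18 and not called with cells thinned to 3000 UMIs) and close to even later, at 0.10 ± 0.0372 (edgeR adjusted p = 0.0277, lost without either Day 7 library and with no depth strata) and -0.04 ± 0.0359 (edgeR adjusted p = 0.298), where *Sec23a* was at 0.53 ± 0.0346 and 0.41 ± 0.0338. The 38 matrix genes summed to 6979 and 7460 CPM in *Col2a1*-high and 7133 and 6608 in *Col1a1*-high cells at Day 2, and to 68972 and 66065 against 25561 and 24188 at Day 7. These sums overlapped between the classes at Day 2 and were higher in the *Col2a1*-high cells at Day 7. *Col2a1* and *Col1a1*, which set the classes, are matrix genes themselves. *Col2a1* alone measured 24373 and 23297 CPM in *Col2a1*-high and 1646 and 1308 in *Col1a1*-high cells at Day 7, which describes the rule. The part of the matrix mRNA in the chaperone differences was not tested.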

How the data were processed

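Single-cell 3′ libraries of 6 DID cultures (Day 2, Day 7 and Day 10, replicates A and B) were analysed from the deposited UMI counts per gene and cell, which the authors made with Cell Ranger 6.1.2 (STAR, GRCm38/mm10). Seurat 4.1.0 is also named in the submitters' processing notes. Cells were kept by the study's limits on UMIs, genes, mitochondrial and ribosomal share. Some limits differed between libraries, with a minimum of 800 or 1000 UMIs, a mitochondrial limit of 25% to 40% and a ribosomal limit of 35% or 40%. Doublets were not removed, and free RNA was not corrected. Cells are not replicates, so counts were summed per library, or per library and class, and tested with edgeR 4.0.16 (filterByExpr, TMM, quasi-likelihood, R 4.3.3) with Benjamini-Hochberg adjustment over all genes tested. Whole cultures entered 1 fit of 6 sums, and each pair of classes 1 fit of 12 sums with a library term. With 2 cultures a day, the p-values of whole cultures measure the spread between these cultures. In the class fits the library term takes out the level of each culture. Their p-values therefore set the class difference against how far it varied between cultures, with the spread estimated over all days together. Each fit left 3 residual degrees of freedom, and edgeR drew the spread of a gene towards that of other genes. Counting error is small for genes with many UMIs. It is larger at the lowest levels, such as 2.89 CPM of *Creb3l1* in the *Col1a1*-low cells of Day 2 replicate B. Shallow cells (under 3000 UMIs) were left out of classes.

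The members, the 7 lists and the marker lists were chosen with earlier results of these data known. Named genes of a list were the 3 with the largest change among those called, at a mean of at least 10 CPM. The text gives those of the main comparisons, without *Srp54a*, which has near-identical copies. Of 2 *Ddit3* entries, that with counts was used. The fits were also run on simulated counts, drawn independently with a single mean level per gene and a common spread. Far fewer genes were changed there than were called here, so these runs cannot show how the fits behave on these data. Alternatives were DESeq2 1.42.0, RLE factors, no low-count filter, other class limits, thinning, the replicate block, removal of matrix genes, and leaving out each library.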

Additional observations from a re-analysis of the deposited data

Results flagged for a closer look

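For 21 values the difference between *Col2a1*-high and *Col2a1*-low cells differed between days by the test of that difference (edgeR, adjusted over all genes), given here on the log2 scale. From Day 2 to Day 7 the difference rose for *Ddit3* (1.36, adjusted p = 1.11e-07), *Serpinh1* (1.15), *Atf6* (0.66), *Hspa5* (0.63), *Xbp1* (0.39), *Sec23a* (0.34) and *Atf4* (0.33), with adjusted p from 5.2e-09 to 0.000232, and moved by -0.47 for *Creb3l1* (adjusted p = 0.00177). From Day 7 to Day 10 it moved by 0.67 for *Creb3l1* (adjusted p = 0.000124), and by -0.59 for *Ddit3*, -0.30 for *Atf4*, -0.27 for *Serpinh1*, -0.22 for *Hspa5* and -0.20 for *Xbp1* (adjusted p from 6e-05 to 0.0257). From Day 2 to Day 10 it moved by 0.88 for *Serpinh1*, 0.77 for *Ddit3*, 0.65 for *Atf6*, 0.41 for *Hspa5*, 0.26 for *Sec23a* and 0.19 for *Xbp1*, and by -0.27 for *Creb3l2* (adjusted p from 2.66e-08 to 0.0189). Some of these calls were not stable. For *Xbp1* the one from Day 2 to Day 10 was lost with DESeq2, RLE factors, no low-count filter, thinned cells, no library term, and without either Day 2 library, Day 7 replicate A or Day 10 replicate A. Its call from Day 7 to Day 10 was lost with no low-count filter, no depth strata, thinned cells, no library term, and without either Day 7 library or Day 10 replicate B. The *Creb3l2* call was lost with thinned cells, with no library term and without cells of other lineages. From Day 7 to Day 10 the *Hspa5* call was lost with no depth strata, no library term and without Day 7 replicate A, that of *Serpinh1* with no library term, that of *Atf4* with no library term and with thinned cells, and those of *Creb3l1* and *Ddit3* with thinned cells. With thinned cells the calls of *Atf4* and *Creb3l1* from Day 2 to Day 7 and of *Sec23a* from Day 2 to Day 10 were lost too, that of *Creb3l1* also with no depth strata. *Ddit3* and *Atf6* were lower in the high cells of both Day 2 libraries and higher in those of both Day 7 and both Day 10 libraries. As the classes were fixed shares of each library, a change in their kinds of cells cannot be told apart from a change inside the same cells.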

How the results depend on the processing

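Fewer genes were called with thinned cells. With cells thinned to 1000 UMIs, 7877, 3410 and 8741 genes were called for Day 7 against Day 2, Day 10 against Day 7 and Day 10 against Day 2. With cells thinned to 3000 UMIs, 4582, 7239 and 6601 were called between *Col2a1* classes at Day 2, Day 7 and Day 10, 3400, 6146 and 5562 between *Col1a1* classes and 3259, 6460 and 6061 between *Col2a1*-high and *Col1a1*-high cells. For the differences between days the thinned counts were 4041 (Day 7 minus Day 2), 1315 (Day 10 minus Day 7) and 3904 (Day 10 minus Day 2). The Day 10 minus Day 7 count was 3769 in the report, 2273 with DESeq2 and 2159 with no replicate block. Without 1 library it ranged from 1836 (without Day 7 replicate A; 1874 without Day 7 replicate B) to 3704. The *Col1a1* count at Day 2 ranged from 4729 (without Day 2 replicate A) to 7775, against 7743.

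Of 2340 values for the 10 genes under alternatives, 2207 counted as unchanged, 104 lost the call, 24 gained it and 5 turned. A turn of sign was counted only where the value was called in the main fit or under the alternative. Values called in neither counted as unchanged whatever their sign. *Hspa5* between *Col2a1* classes at Day 2 was -0.0056 with no depth strata and -0.012 without cells of other lineages. *Creb3l1* was 0.12 for Day 7 minus Day 2 with cells thinned, *Creb3l2* -0.0073 between *Col1a1* classes at Day 2 without cells of other lineages, and *Sec24d* -0.061 between *Col2a1*-high and *Col1a1*-high cells at Day 7 with cells thinned. Of the other named genes, *Eif2ak4* (0.075) and *Ssr2* (0.0048) turned for Day 10 minus Day 7 with cells thinned. The causes were not tested. The omission of cells of other lineages was chosen after seeing the data.

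Deviations of same-lettered libraries had correlations of -0.034, -0.0936 and -0.259 between days, none of them positive. These values cannot show whether same-lettered cultures shared tissue or handling. With a replicate block in the whole-culture fit, 13135, 9607 and 14524 genes were called in place of 13342, 9913 and 14670, and *Serpinh1* was also called at Day 10 against Day 7.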
